A study of Homo sapiens with 26 samples.

Results

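The mRNAs of 40 genes of protein folding and quality control in the endoplasmic reticulum (ER) were followed through a plasma membrane APEX-seq experiment. The genes were chosen by name for their roles, with earlier results of these data known. Of them, 39 had a value among the 25745 genes of the deposited table. DERL3, the remaining name, was not analysed here. The list held 11 chaperones and co-chaperones, 9 disulfide and proline isomerases and 9 genes of ER-associated degradation. It also held 3 signaling genes of the unfolded protein response (the sensors ATF6 and ERN1, and XBP1) and 8 genes of the translocon. All 39 passed the filter for low values (log2 FPKM above 0 in at least 3 libraries), as did 22284 genes in total. FPKM counts fragments per kilobase of exon, scaled to the depth of the library. The length takes all annotated exon bases of a gene, whether or not they are in the mRNA expressed, so levels compare only roughly between genes.

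APEX-seq uses a peroxidase, APEX2, fused to a targeting sequence. In cells given biotin-phenol and a brief pulse of hydrogen peroxide the enzyme biotinylates nearby RNA, which is then captured on streptavidin beads. The cells were HEK293T, a human embryonic kidney line, and each construct was carried by a stable line of its own. Labeled and unlabeled control libraries came from Lyn11 (4 and 4 libraries) and Lck (3 and 3), which the design text places inside the membrane, and from CD28 (3 and 3) and PDGFR (3 and 3), placed outside. The controls also express the APEX2 fusion. The labels list the same labeling steps for labeled and control libraries, 30 min of biotin-phenol and 1 min of 1 mM hydrogen peroxide. Which step was left out of the controls is not given in the sources used here. The design text calls the libraries of a group biological replicates. The p-values below measure the spread between them, pooled over all groups of all constructs in the main fit. In bulk RNA of one cell line, a difference between fewer cells expressing a gene and less RNA per cell cannot be told apart.

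Secreted and membrane proteins enter the ER through the SEC61 translocon, fold there with the help of chaperones and disulfide isomerases, and are sent back to the cytosol for degradation if folding fails. When unfolded protein accumulates, the sensors ERN1 (IRE1), ATF6 and EIF2AK3 (PERK) start the unfolded protein response. ERN1 splices the XBP1 mRNA, ATF6 is cleaved into a transcription factor, and EIF2AK3 slows translation and raises ATF4. XBP1 and ATF6 then induce chaperone, translocon and degradation genes, in part through the ER stress response elements ERSE and ERSE-II in their promoters. Many of these mRNAs encode secreted or membrane-bound proteins and are translated on the ER surface.

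Recovered reads per library ran from 19993414 to 35572456 inside and from 11598445 to 16619088 outside, so the side of the membrane, the depth and the cell lines cannot be told apart. Between 24 and 308 genes were at 0 reads in inside libraries, against 177 to 3147 in outside libraries. Replicate 2 of the CD28 labeled group and replicate 2 of the PDGFR controls differed from the rest, with the most genes at 0 in their groups. The median of all genes depended on the scaling. For CD28 labeled minus control it was 0.03 on the log2 scale as deposited, 0.19 after median centring and -0.13 with limma voom on recovered reads. For the inside minus outside controls the same medians were 0.05, 0.15 and -0.06. The calls over all genes also changed with the setting. In the inside minus outside controls 1635 genes were higher and 855 lower as deposited, 2633 and 593 after median centring, and 949 and 1650 with limma voom. Outside labeled against control gave 340 higher and 370 lower genes as deposited, 532 and 305 after median centring, and 113 and 221 with limma voom. For CD28 the counts were 39 and 67 as deposited, 56 and 46 after median centring, 42 and 35 after quantile normalization, and 8 and 10 with limma voom, and for PDGFR 306 and 169 as deposited and 45 and 9 with limma voom. The HEK293 markers NEFM and NEFL held at least 359 and 679 reads in every library. PAX2 held 84 to 346, INA 4 to 77 and PAX8 0 to 26 reads, and LHX1 was not analysed here. Summed markers of blood cells reached at most 5.01 FPKM in labeled and 5.96 FPKM in control libraries, and 3 of those 6 had a value. Fibroblast markers summed to 5.70 to 11.6 FPKM in labeled and 6.01 to 10.8 FPKM in control libraries (5 of 6 with a value), epithelial markers to at most 3.86 and 3.60 FPKM (3 of 5) and endothelial markers to at most 0.570 and 0.725 FPKM (2 of 4). The part of these markers in the results was not tested.

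The members were abundant mRNAs in these libraries. Their median stood at percentile 91.7 of the 22284 genes by mean log2 FPKM. Calnexin (CANX) and calreticulin (CALR), the lectin chaperones that hold newly glycosylated proteins, led with medians of 274 and 270.4 FPKM over the 26 libraries. HSPA5 (BiP), the ER Hsp70, followed at 200.3 FPKM and HSP90B1 (GRP94), the ER Hsp90, at 171 FPKM. Of the isomerases, PDIA4 (147 FPKM) and P4HB (86.9 FPKM) stood highest, and of the translocon SEC61A1 (78.9 FPKM), the channel itself. The degradation genes were lower, with medians of 5.11 FPKM (DERL2) to 23.7 FPKM (HERPUD1). Of the signaling genes, XBP1 stood at 51.7 FPKM, and the sensors ATF6 at 13.2 FPKM and ERN1 at 5.43 FPKM. TXNDC5, a disulfide isomerase, was lowest at 1.76 FPKM, and 60.6% of its exon bases are shared with the readthrough gene BLOC1S5-TXNDC5. In this order 32 of 38 neighbouring pairs were closer than the larger of their SDs over libraries, so most ranks cannot be separated. The plot of levels by role shows the spread of each.

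**Figure D1:**
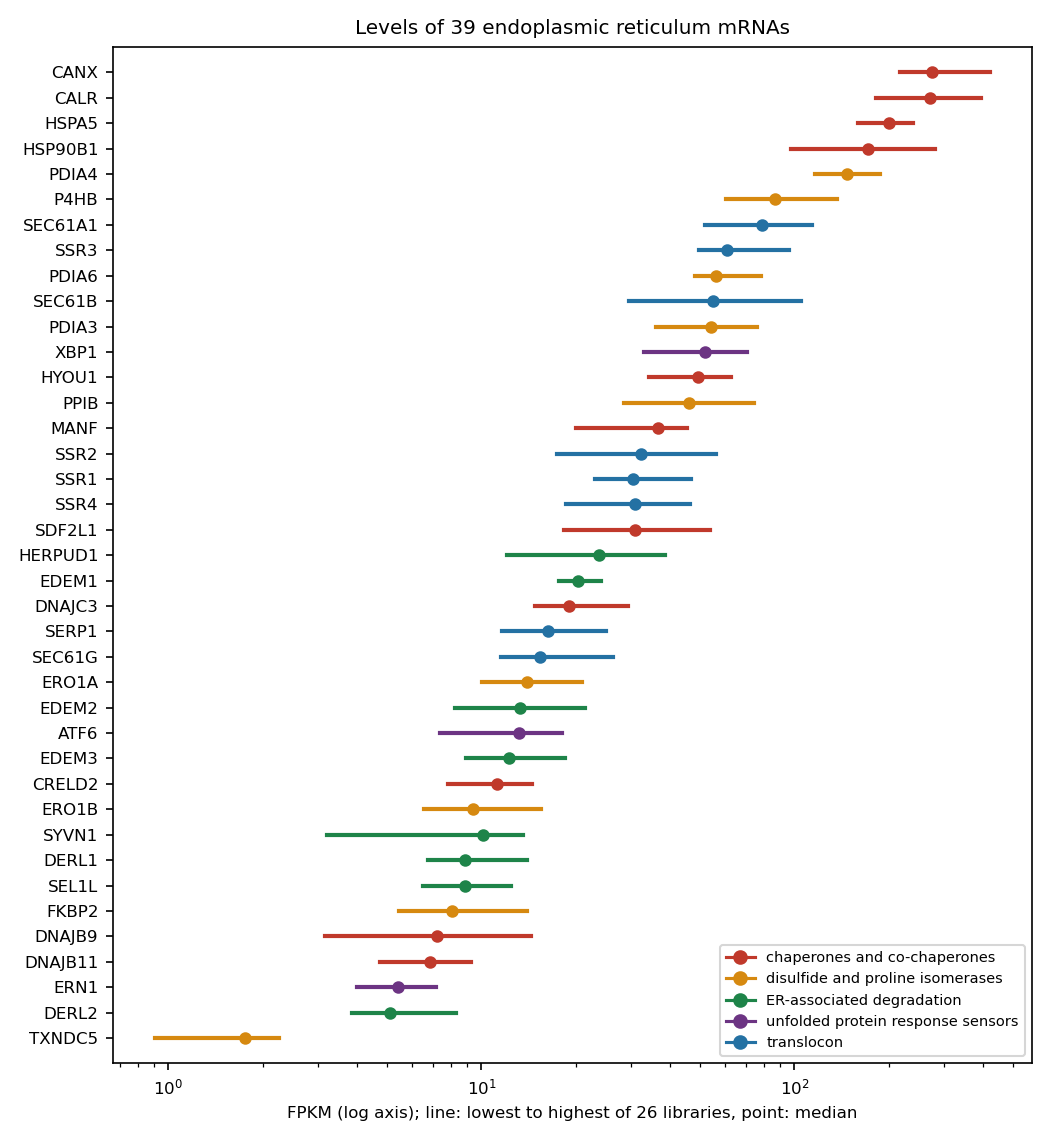
Level of the 39 members in FPKM on a log axis, ordered by mean and coloured by role, with XBP1 in the colour of the sensors. Points are the median and lines run from the lowest to the highest of 26 libraries, from TXNDC5 (0.905 to 2.26 FPKM) to CANX (217 to 422 FPKM).

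Promoter sequences are shown because the unfolded protein response reaches many of these genes through the same short elements. RefSeq windows around transcript starts (GRCh38.p14) were found for 37 members and were searched on both strands. ERSE was written as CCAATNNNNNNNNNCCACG, ERSE-II as ATTGG and CCACG with 1 base between them, and the core of the XBP1 element UPRE as TGACGTGG. ERSE was in windows of 9 members and in 0.0769% of all 35116 windows. ERSE-II was in 3 members and in 0.0541% of windows, and the UPRE core in 4 members and 0.729% of windows. Either ERSE form was found in 12 of the 37 members (32.4%) and in 44 of all 27305 genes with windows (0.161%), or 0.131% of windows. The 12 members are among the 44 genes. Members were chosen for roles in ER folding and the unfolded protein response, so these shares are descriptive. A match describes letters and shows neither a bound site nor a cause. In the stretches below, on the strand of the gene, capitals mark the ERSE of HSPA5, CALR and XBP1 and the ERSE-II of HERPUD1, SDF2L1 and HYOU1. In CALR, SDF2L1 and HYOU1 the element lies on the opposite strand. The first HYOU1 element overlaps a UPRE core. The stretches lie at chr9:125241376-125241424 (minus strand), chr19:12938369-12938417 (plus), chr22:28800598-28800636 (minus), chr16:56932010-56932047 (plus), chr22:21642099-21642139 (plus) and chr11:119057259-119057405 (minus), in the order printed.
HSPA5: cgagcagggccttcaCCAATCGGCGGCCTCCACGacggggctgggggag
CALR: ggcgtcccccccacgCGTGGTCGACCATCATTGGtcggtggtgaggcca
XBP1: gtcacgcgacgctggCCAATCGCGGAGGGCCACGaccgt
HERPUD1: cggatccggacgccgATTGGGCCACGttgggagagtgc
SDF2L1: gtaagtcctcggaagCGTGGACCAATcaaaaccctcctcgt
HYOU1: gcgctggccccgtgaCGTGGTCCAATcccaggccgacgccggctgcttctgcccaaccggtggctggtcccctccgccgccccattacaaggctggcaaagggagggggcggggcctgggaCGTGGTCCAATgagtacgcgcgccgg

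The first comparison asked which of these mRNAs were enriched by labeling, averaged over the 4 constructs with equal weight. HERPUD1, HSPA5, DNAJB9, CALR, MANF and HYOU1 were higher in labeled libraries and no member was lower (limma, adjusted p under 0.05, Benjamini-Hochberg over all genes). The increases were 1.58-fold for DNAJB9 and 1.19-fold to 1.28-fold for the other 5. The 6 members are 15.4% of 39, against 4.29% of all genes called higher and 7.37% called in either direction. Because the members were chosen with earlier results of these data known, these and the following shares are descriptive. No member was called lower, against 3.08% of all genes. Limma voom on recovered reads also called 6 higher and 0 lower, against 7.6% of all genes in either direction. At an unadjusted p under 0.05 there were 15 members, each with a higher mean in labeled libraries, against 19.2% of all genes. The mean difference was above 0 in 36 of 39 members and in 48.9% of all genes. Without CD28 labeled replicate 2 it was above 0 in 33 members, without PDGFR control replicate 2 in 33 and without both in 34. The sign turned on leaving out 1 library in 7 members near 0, which were EDEM2, ERO1A, HSP90B1, SEL1L, SERP1, SSR4 and SYVN1. It was above 0 in all 4 constructs for 19 members (48.7%), against 12.4% of all genes, and below 0 in all 4 for 0 members, against 13.5%. The median of the members was 0.13 on the log2 scale, and that of all genes -0.01.

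HERPUD1 (ENSG00000051108.14, hg38 chromosome 16, 56932048 to 56944863) encodes a membrane protein of the ER degradation complex and is a textbook target of the unfolded protein response. With Lyn11 it stood at 29.5, 36.9, 38.7 and 33.7 FPKM in labeled libraries, against 25.01, 27.7, 31.2 and 25.3 FPKM in controls. Lck libraries held 35.8, 32.1 and 31.8 FPKM when labeled and 24.1, 26.5 and 23.3 FPKM as controls. On the outside, CD28 labeled libraries held 18.2, 14.4 and 16.0 FPKM, against 12.9, 12.1 and 12.3 FPKM in controls. The labeled and control ranges of HERPUD1 overlapped with Lyn11, where labeled replicate 1 was below control replicate 3, and did not overlap with Lck or CD28. PDGFR labeled libraries held 21.0, 20.4 and 19.0 FPKM and the controls 17.5, 15.4 and 16.9 FPKM, again without overlap. The average difference of HERPUD1 was 0.36 ± 0.05 on the log2 scale (SE), 1.28-fold, with limma's adjusted p = 0.000183.

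HSPA5 (ENSG00000044574.7, chromosome 9, 125234853 to 125241330) encodes the chaperone that binds unfolded chains in the ER lumen and holds the sensors inactive. Lyn11 labeled libraries held 231, 215, 239.6 and 209 FPKM of it, against 192, 201, 210.3 and 190.4 FPKM in controls. With Lck the values were 233, 211 and 200.4 FPKM in labeled and 183, 179 and 168 FPKM in control libraries. The ranges overlapped slightly in Lyn11, where labeled replicate 4 was below control replicate 3, and were apart in Lck. CD28 labeled libraries held 238, 224 and 224 FPKM, against 188, 159.7 and 189 FPKM in controls. PDGFR labeled libraries held 198, 232 and 200.2 FPKM, and the controls 178, 159.6 and 166 FPKM. Both outside constructs were without overlap. The average difference of HSPA5 was 0.28 ± 0.05 (SE), 1.22-fold (adjusted p = 0.000804, limma). It was 0.18 after quantile normalization, where the call was lost (adjusted p = 0.0519).

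DNAJB9 (ENSG00000128590.4, chromosome 7, 108569568 to 108574850), a DnaJ partner of HSPA5, had the largest average difference of the 39 and one of the lower levels. Lyn11 labeled libraries held 9.79, 8.11, 12.2 and 7.01 FPKM, against 4.31, 6.14, 7.48 and 8.18 FPKM in controls. Lck labeled libraries held 10.3, 9.74 and 14.4 FPKM, and the controls 9.31, 6.0 and 6.27 FPKM. Labeled and control libraries overlapped in Lyn11 and were close but apart in Lck. CD28 labeled libraries held 5.91, 12.9 and 6.38 FPKM, against 3.16, 4.84 and 4.12 FPKM in controls. With PDGFR they held 7.72, 8.80 and 6.95 FPKM labeled and 4.11, 8.73 and 5.12 FPKM as controls. The highest labeled CD28 value and the highest PDGFR control value of DNAJB9 came from the 2 libraries that stand apart, and the PDGFR groups overlapped through that control. The average difference was 0.66 ± 0.15 (SE; adjusted p = 0.00914, limma). It stayed called without those 2 libraries and in each of the 35 alternatives run, as did HERPUD1. On the opposite strand, THAP5 covers 6.45% and PNPLA8 3.49% of the exon bases of DNAJB9.

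CALR (ENSG00000179218.13, chromosome 19, 12938578 to 12944489) ran from 207 to 319 FPKM with a median of 290.0 FPKM in the 7 inside labeled libraries, and from 183 to 329 FPKM with a median of 211 FPKM in the 7 inside controls. Outside, it ran from 271 to 395 FPKM (median 339 FPKM) in 6 labeled libraries and from 212 to 301 FPKM (median 268 FPKM) in 6 controls. The ranges overlapped on both sides, and the medians were higher in labeled libraries. Its average difference was 0.28 ± 0.07 (SE; adjusted p = 0.0197, limma), and the call was lost in 3 of 35 alternatives, among them those without both libraries that stand apart (0.24, adjusted p = 0.0525) and after quantile normalization (0.16, adjusted p = 0.163). An antisense gene covers 9.95% of the exon bases of CALR, and whether reads were counted by strand is not given in the sources used here.

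MANF (ENSG00000145050.15, chromosome 3, 51385047 to 51389397) encodes a stress-induced protein of the ER lumen that binds HSPA5 and can be secreted. Inside, it ran from 35.6 to 45.5 FPKM (median 42.0 FPKM) in labeled libraries and from 31.8 to 39.01 FPKM (median 36.7 FPKM) in controls. Outside, labeled libraries ran from 25.6 to 41.4 FPKM (median 38.1 FPKM) and controls from 20.0 to 33.1 FPKM (median 26.9 FPKM). Both pairs of ranges overlapped. The average difference of MANF was 0.31 ± 0.08 (SE; adjusted p = 0.0200, limma), and the call was lost in 1 of 35 alternatives.

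HYOU1 (ENSG00000149428.18, chromosome 11, 119044189 to 119057202), the exchange factor that recharges HSPA5, was at the edge of the threshold. It ran from 41.6 to 56.3 FPKM (median 53.8 FPKM) in inside labeled libraries and from 38.7 to 60.7 FPKM (median 43.2 FPKM) in inside controls. Outside labeled libraries ran from 47.7 to 62.9 FPKM (median 57.6 FPKM), against 34.4 to 55.0 FPKM (median 42.7 FPKM) in controls. The average difference was 0.25 ± 0.08 (SE; adjusted p = 0.0471, limma), and the call was lost in 25 of 35 alternatives, among them leaving out any 1 of 20 libraries. HYOU1 overlaps an antisense gene over 8.66% of its exon bases.

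**Figure D2:**
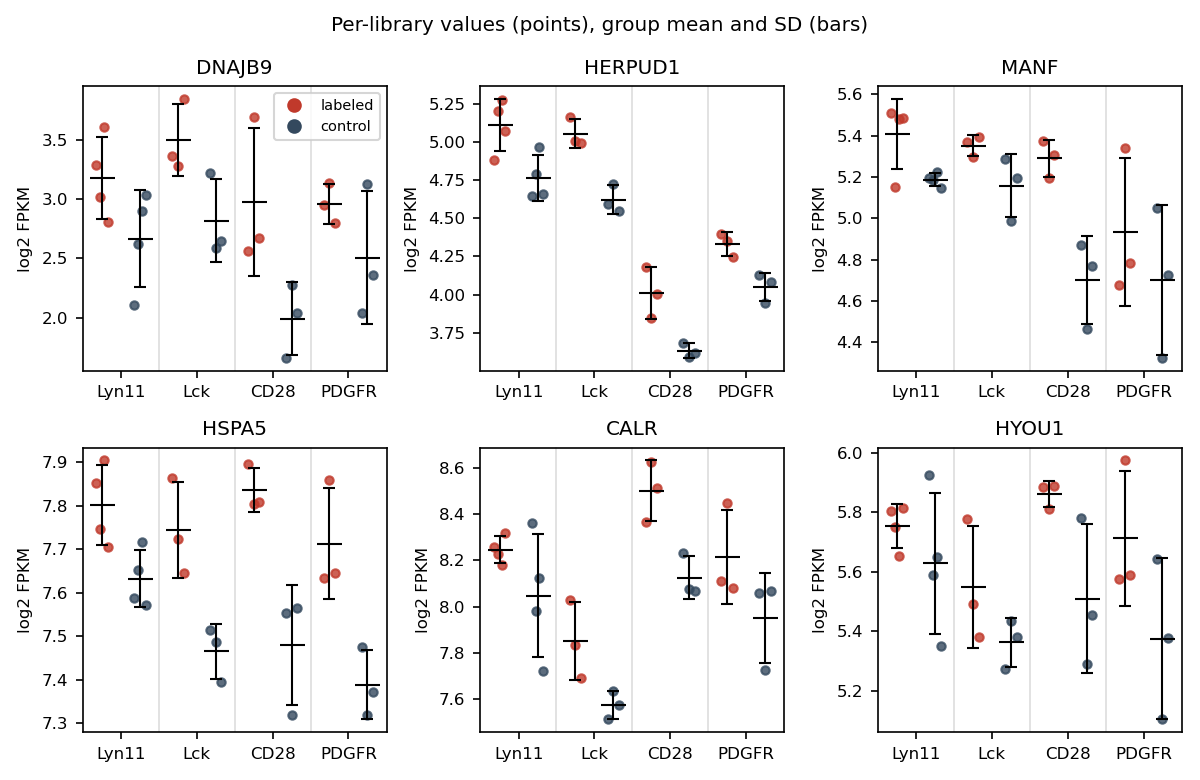
Log2 FPKM of the 6 members that were higher in labeled libraries on average, by construct, labeled left of control. Points are libraries, the long bar is the group mean and the whiskers are the SD (n = 4 for Lyn11, 3 for the others), and the labeled mean is above the control mean in every panel and construct.

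The other chaperones did not pass the test. HSP90B1 had an average difference of 0.04 (95% interval -0.22 to 0.29; -0.08 after quantile normalization), and it ran from 97.7 to 211 FPKM in inside labeled libraries, against 121 to 211 FPKM in inside controls. Outside, HSP90B1 ran from 133 to 281 FPKM in labeled and from 137 to 203 FPKM in control libraries. CANX had 0.12 (-0.05 to 0.29), with 217 to 332 FPKM in inside labeled libraries against 230.4 to 308 FPKM in inside controls, and 234 to 422 FPKM in outside labeled libraries against 232 to 296 FPKM in outside controls. For both mRNAs the labeled range enclosed or nearly enclosed the control range. DNAJB11 (0.24), SDF2L1 (0.22), DNAJC3 (0.18) and CRELD2 (0.13), which are co-chaperones or ER stress-induced luminal proteins, had positive averages in each of the 4 constructs. The median of the 11 chaperones and co-chaperones was 0.24, of which 5 were called higher and 0 lower.

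None of the 9 isomerases was called, and their median was 0.12. PDIA4 was nearest, at 0.17 ± 0.06 (SE; adjusted p = 0.0947, limma), with 121 to 188 FPKM in inside labeled libraries against 117 to 163 FPKM in inside controls, and 131 to 179 FPKM outside labeled against 122 to 149 FPKM in controls. P4HB, the main protein disulfide isomerase, had 0.19 ± 0.09 (adjusted p = 0.225, limma), with 63.3 to 115 FPKM in inside labeled libraries against 60.3 to 137 FPKM in inside controls. Outside, P4HB ran from 83.6 to 110.1 FPKM in labeled and from 64.0 to 102 FPKM in control libraries. An antisense gene covers 9.98% of the exon bases of P4HB. PPIB, the ER cyclophilin, had 0.29 ± 0.13 (adjusted p = 0.228, limma), and 27.2% of its exon bases lie opposite SNX22. FKBP2, a proline isomerase, was below 0 at -0.08 (95% interval -0.27 to 0.11). PDIA6 shares 25.2% of its exon bases with ATP6V1C2 on the opposite strand, and PDIA3 overlaps ELL3 there and has the pseudogenes PDIA3P1 and PDIA3P2 in the table. Of the others, PDIA6 had 0.13, PDIA3 0.12, TXNDC5 0.11, and the oxidases ERO1B and ERO1A 0.09 and 0.02.

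HERPUD1 was the 1 called of 8 degradation genes with values, and 0 were lower. SYVN1 (HRD1), the ubiquitin ligase at the centre of the pathway, had -0.09 (95% interval -0.36 to 0.19). SYVN1 shares 7.24% of its exon bases with FAU on the same strand and 6.48% with MRPL49 on the opposite strand. The SYVN1 level was 3.21 FPKM in CD28 labeled replicate 2, against 10.4 and 8.12 FPKM in the other CD28 labeled libraries. Without that library the SYVN1 average was 0.04. Its partner SEL1L had 0.02 (-0.17 to 0.20). DERL1 and DERL2, which help move proteins out of the ER, had 0.17 and 0.14. The mannosidase-like EDEM1, EDEM2 and EDEM3 had -0.05, 0.05 and 0.11. The median of the 8 was 0.08.

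The signaling genes ATF6, ERN1 and XBP1 stayed under the threshold with averages between 0.06 and 0.11. XBP1 ran from 51.9 to 70.3 FPKM in inside labeled libraries against 51.3 to 70.7 FPKM in inside controls, and from 34.6 to 51.6 FPKM outside labeled against 33.1 to 43.2 FPKM in outside controls. Its average difference was 0.06 (95% interval -0.05 to 0.18). The values count all XBP1 reads and do not separate the spliced form. The translocon had a median of 0.14 and 0 called members. SEC61A1 had 0.22 ± 0.09 (SE; adjusted p = 0.131, limma), with 64.1 to 107 FPKM in inside labeled libraries against 56.0 to 114 FPKM in inside controls, and 74.5 to 97.1 FPKM in outside labeled libraries against 51.9 to 87.8 FPKM in outside controls. Without Lyn11 control replicate 1 it passed (0.26, adjusted p = 0.0332). SEC61B and SEC61G, the small subunits, had 0.25 and 0.26 (adjusted p = 0.172 and 0.115, limma). SEC61B ran from 32.3 to 84.3 FPKM in inside labeled libraries against 29.7 to 59.5 FPKM in inside controls, and from 56.0 to 105 FPKM in outside labeled libraries against 53.0 to 72.3 FPKM in outside controls. SSR3, of the translocon-associated complex, had 0.10 (-0.05 to 0.26), with 53.1 to 76.3 FPKM in inside labeled libraries against 53.7 to 73.4 FPKM in inside controls, and 49.6 to 95.8 FPKM outside labeled against 54.8 to 68.0 FPKM in controls. SSR2, SSR1 and SSR4 of the same complex had 0.17, 0.10 and 0.06. SERP1, which protects translocated proteins under stress, was at 0.00.

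**Figure D3:**
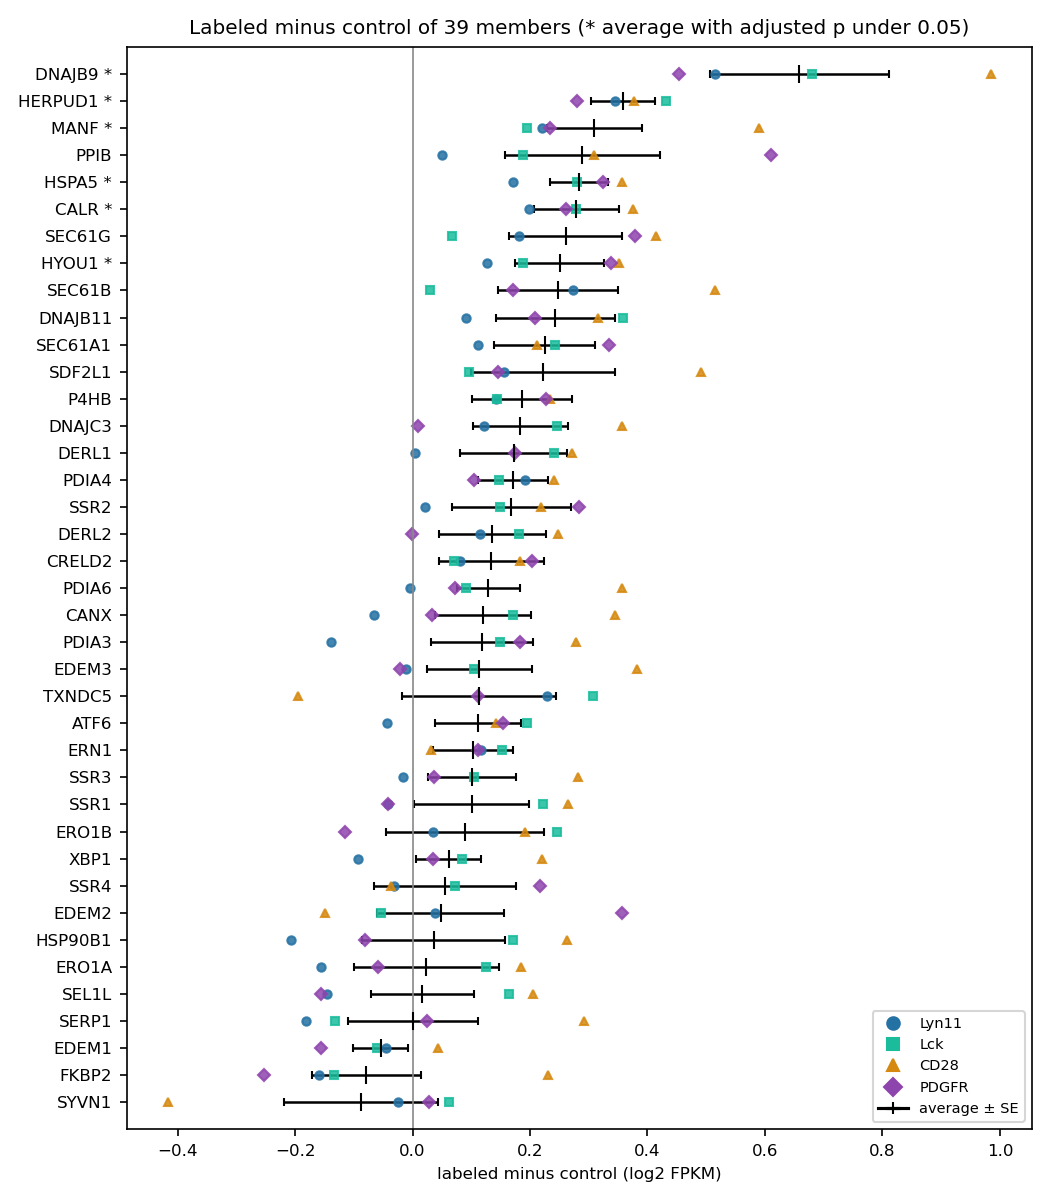
Labeled minus control difference (log2 FPKM) of each member in each construct (coloured symbols) and on average (bar, with its SE as whiskers), ordered by the average. The average lies right of 0 for 36 of 39 members, from DNAJB9 at 0.66 down to SYVN1 at -0.09 (0.04 without CD28 labeled replicate 2), and asterisks mark the 6 that were called.

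Members with and without an ERSE form had like averages. The 12 with an element had a median of 0.13, with 4 called (HSPA5, CALR, HYOU1 and HERPUD1), and the 25 without one had a median of 0.11, with 2 called (DNAJB9 and MANF).

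Within single constructs 0 members passed limma's threshold in each of the 4, against 0.579% of all genes with Lyn11, 0.794% with Lck, 0.476% with CD28 and 2.13% with PDGFR. Of all genes, 0.53% were called higher and 0.0494% lower with Lyn11, 0.758% and 0.0359% with Lck, 0.175% and 0.301% with CD28, and 1.37% and 0.758% with PDGFR. Limma voom also called 0 members in each. These shares rest on a spread pooled over all constructs. With each construct fitted alone, limma called 0.61% of all genes with Lyn11, 4.42% with Lck, 0% with CD28 and 0.0673% with PDGFR. Of the members, HERPUD1 was called there, with Lck. At an unadjusted p under 0.05 there were 1 member with Lyn11 (HERPUD1), 3 with Lck, 11 with CD28 and 4 with PDGFR, against 5.65%, 6.4%, 13.5% and 14.1% of all genes. The member medians were 0.04 with Lyn11, 0.15 with Lck, 0.27 with CD28 and 0.15 with PDGFR, and those of all genes -0.03, -0.04, 0.03 and 0.02. The Lyn11 median was -0.06 without labeled replicate 1 and 0.12 without control replicate 1. The CD28 median was 0.08 after quantile normalization, 0.12 with limma voom and 0.43 after median centring. The PDGFR median was 0.05 after quantile normalization, 0.04 without labeled replicate 2 and 0.07 without control replicate 2. In Lyn11 labeled libraries 0 members lay above every control library, against 3.4% of all genes. With Lck there were 11 such members (12.9% of all genes), with CD28 10 (7.44%) and with PDGFR 6 (7.53%). CALR, HERPUD1 and HSPA5 were among them in Lck, CD28 and PDGFR. No member lay below every control in any construct, against 1.91% of all genes with Lyn11, 13.2% with Lck, 6.59% with CD28 and 6.39% with PDGFR. The Lck libraries varied least (median SD of the members 0.15 in labeled and 0.12 in control libraries). With a weight for each construct Lck called DNAJB9, HERPUD1 and HSPA5, where 8.22% of all genes were called (1200 higher and 631 lower).

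Summed over the 39 members, CD28 labeled libraries held 2411 ± 202 FPKM and CD28 controls 1941 ± 32.5 FPKM (SD, n = 3 each), with no overlap. Lck labeled libraries held 1979 ± 75.7 FPKM against 1742 ± 53.6 FPKM in controls (SD, n = 3 each), also apart. The PDGFR ranges overlapped slightly, with 1868 to 2264 FPKM in labeled and 1710 to 1874 FPKM in control libraries. Those of Lyn11 overlapped (1974 to 2425 FPKM labeled, 1948 to 2222 FPKM in controls). PDGFR control replicate 2 was the lowest of all 26 libraries in 12 of the 39 members, and CD28 labeled replicate 2 the highest in 8. The part of these 2 libraries in the member medians was not tested beyond leaving them out, alone and together.

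On the inside of the membrane HERPUD1 was called, with a difference of 0.39 ± 0.07 (SE; adjusted p = 0.00344, limma) and values of 29.5 to 38.7 FPKM in 7 labeled libraries against 23.3 to 31.2 FPKM in 7 controls. That is 1 of 39 members higher (2.56%), against 2.49% of all genes called higher and 2.86% in either direction, and 0 lower, against 0.368%. On the outside HSPA5 (0.34 ± 0.07, adjusted p = 0.0109) and HERPUD1 (0.33 ± 0.08, adjusted p = 0.0244) were called by limma, 2 of 39 (5.13%) against 1.53% of all genes called higher and 3.19% in either direction. No member was lower, against 1.66%. HSPA5 held 198.5 to 238 FPKM in 6 outside labeled libraries and 159.6 to 189.5 FPKM in 6 controls, without overlap. HERPUD1 held 14.4 to 21.0 FPKM and 12.1 to 17.5 FPKM in the same groups, which overlapped across constructs. Both outside calls were lost with limma voom (adjusted p = 0.0509 for HSPA5 and 0.295 for HERPUD1), with quantile normalization, with a weight for each construct and when the outside libraries were fitted alone. For HSPA5 the outside difference was 0.10 after quantile normalization (adjusted p = 0.627, limma), and over all 36 alternatives its adjusted p ran from 0.00862 to 0.627. HERPUD1 also lost its outside call when CD28 labeled replicate 1, CD28 control replicate 2, PDGFR labeled replicate 1 or 2, or PDGFR control replicate 2 was left out (adjusted p = 0.0501 to 0.0575).

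Labeling differences on the inside and the outside were then set against each other. By limma 0 members differed, with 0 at an unadjusted p under 0.05 and 0 with limma voom, against 0.00449% of all genes called. HSPA5 differed by -0.12 (95% interval -0.32 to 0.09), HERPUD1 by 0.06 (-0.16 to 0.28) and DNAJB9 by -0.12 (-0.76 to 0.51). The members' median was -0.11 and that of all genes -0.04 (-0.15 after median centring, 0.09 with limma voom), and the members' median was 0.02 after quantile normalization and 0.03 with limma voom. Between the 2 inside constructs (Lyn11 minus Lck) 0 members were called, 0 had an unadjusted p under 0.05 and limma voom called 0 (0% of all genes). HSPA5 differed there by -0.11 (-0.39 to 0.17). CD28 minus PDGFR also gave 0 calls, 0 at an unadjusted p under 0.05 and 0 with limma voom, against 0.0494% of all genes (0.00449% higher, 0.0449% lower). DNAJB9 differed by 0.53 (-0.40 to 1.46), by 0.17 without CD28 labeled replicate 2, by 0.22 without PDGFR control replicate 2 and by -0.14 without both.

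Other genes of the same pathways, from lists chosen with earlier results of these data known, are read against the 4.29% of all genes called higher and 3.08% called lower in the average. Of 19 further degradation genes 3 were higher and 0 lower. These were SELENOS (0.36 ± 0.08, adjusted p = 0.00347), VCP, the ATPase that pulls proteins from the ER membrane (0.31 ± 0.08, adjusted p = 0.0188), and OS9, a lectin of the SEL1L complex (0.24 ± 0.06, adjusted p = 0.0154), all by limma. Of 17 further unfolded protein response genes tested PPP1R15A (GADD34), which restores translation after stress, was higher by 0.45 ± 0.07 (adjusted p = 0.000122, limma), and 0 were lower. PPP1R15A held 16.7 to 17.1 FPKM in Lck labeled libraries against 11.4 to 12.2 FPKM in Lck controls. With Lyn11 it held 15.17 to 17.8 FPKM labeled and 10.3 to 15.06 FPKM as controls. CD28 labeled libraries held 10.6 to 14.0 FPKM of it, against 7.84 to 8.56 FPKM in controls. The PDGFR ranges overlapped, at 9.56 to 11.8 FPKM labeled and 7.44 to 9.90 FPKM in controls. KRTCAP2, 1 of 12 oligosaccharyltransferase genes, was lower by limma (-0.63 ± 0.16, adjusted p = 0.0182) at 0.665 to 2.40 FPKM in labeled and 1.56 to 3.41 FPKM in control libraries, and 0 of that list were higher. Limma called 0 of 26 other folding enzymes, 0 of 23 other translocation and signal peptidase genes, and 0 of 8 genes of the signal recognition particle and its receptor. The medians of these 6 lists lay between 0.00 and 0.11. The largest uncalled differences were 0.28 for QSOX1 and 0.23 for ERP44 among folding enzymes, 0.28 for EMC3 and 0.22 for SPCS2 in translocation, 0.20 for SRPRB and 0.19 for SRPRA in the recognition particle's receptor, 0.19 for DDOST, and -0.39 for ASNS.

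Lists from outside the ER were set beside the members. Of 24 cytosolic and mitochondrial chaperones tested DNAJB1 was higher (0.33 ± 0.09, adjusted p = 0.0261, limma) and 0 were lower, with a median of 0.10 and DNAJA1 next at 0.26. Of 18 cytosolic metabolic enzymes 0 were called, with a median of 0.05, PGD at 0.19 and TPI1 at 0.13. With CD28 the medians were 0.37 for the cytosolic and mitochondrial chaperones and 0.22 for the metabolic enzymes, against 0.36 for the 11 ER chaperones and co-chaperones. With Lck they were -0.05 and -0.17, against 0.20. With Lyn11 they were 0.00 and -0.02, against 0.13, and with PDGFR 0.10 and 0.15, against 0.21.

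The last comparison set the unlabeled controls of the inside lines against those of the outside lines. The labels list the same labeling steps for these controls, so their values cannot be read as those of untreated cells. HERPUD1, ATF6, XBP1, MANF and SEL1L were higher in inside controls and SDF2L1, SEC61B and FKBP2 were lower (limma, adjusted p under 0.05). The 5 higher members are 12.8% of 39, against 7.34% of all genes, and the 3 lower ones 7.69%, against 3.84%. In either direction 11.2% of all genes were called. With limma voom 4 members were higher (ATF6, HERPUD1, MANF and XBP1) and 5 lower (CALR, CRELD2, FKBP2, SDF2L1 and SEC61B), where 949 of all genes were higher and 1650 lower. At an unadjusted p under 0.05 there were 17 members (43.6%), against 26.6% of all genes. The members' median was 0.07, that of all genes 0.05, and with limma voom the members' median was -0.03. The lines differ in construct, depth and number of undetected genes, and the part of each in this comparison cannot be told apart. The inside lines are Lyn11 and Lck and the outside lines CD28 and PDGFR. The SE and p-values measure the spread between libraries within lines, not between lines. On simulated data this comparison gave more false calls than the nominal share, so its adjusted p-values may be too small.

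HERPUD1 held 25.01, 27.7, 31.2 and 25.3 FPKM in Lyn11 controls and 24.1, 26.5 and 23.3 FPKM in Lck controls, against 12.9, 12.1 and 12.3 FPKM in CD28 controls and 17.5, 15.4 and 16.9 FPKM in PDGFR controls. Every inside control was above every outside control, and the difference was 0.85 ± 0.08 on the log2 scale (SE), 1.80-fold (adjusted p = 3.37e-06, limma). The labeled libraries were ordered alike, at 29.5 to 38.7 FPKM inside and 14.4 to 21.0 FPKM outside. XBP1 (ENSG00000100219.16, chromosome 22, 28794555 to 28800597) held 68.9, 64.9, 70.7 and 59.1 FPKM in Lyn11 controls and 51.3, 52.5 and 53.5 FPKM in Lck controls. It held 40.2, 38.7 and 43.2 FPKM in CD28 controls and 38.9, 33.1 and 40.05 FPKM in PDGFR controls, also without overlap (0.59 ± 0.08, adjusted p = 0.000109, limma).

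ATF6 (ENSG00000118217.5, chromosome 1, 161766294 to 161964070) ran from 12.8 to 18.0 FPKM in inside controls (median 15.5 FPKM) and from 7.35 to 12.7 FPKM in outside controls (median 9.24 FPKM), without overlap, by 0.72 ± 0.10 (SE; adjusted p = 0.000257, limma). MANF ran from 31.8 to 39.01 FPKM inside and from 20.0 to 33.1 FPKM outside, with overlap, by 0.47 ± 0.11 (adjusted p = 0.0116, limma). SEL1L (ENSG00000071537.13, chromosome 14, 81471549 to 81533861) ran from 8.77 to 12.5 FPKM inside and from 6.67 to 8.92 FPKM outside, by 0.43 ± 0.13 (adjusted p = 0.0295, limma). The SEL1L ranges overlapped, and its call was lost with limma voom and when 1 of 7 control libraries was left out (adjusted p up to 0.0785). SERP1 did not overlap between the sides, at 17.0 to 21.6 FPKM inside and 12.2 to 16.5 FPKM outside, without passing the test (0.43 ± 0.16, adjusted p = 0.0821, limma). ATF6, HERPUD1, SERP1 and XBP1 are 10.3% of the members, against 3.11% of all genes that were higher without overlap, and 0 members were lower without overlap, against 1.25% of all genes.

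SDF2L1 (ENSG00000128228.4, chromosome 22, 21642261 to 21644298), an ER partner of DNAJB11, held 42.0, 23.5, 23.3 and 19.2 FPKM in Lyn11 controls and 19.8, 19.2 and 18.5 FPKM in Lck controls. It held 41.5, 35.6 and 25.3 FPKM in CD28 controls and 49.0, 31.2 and 35.4 FPKM in PDGFR controls. The groups overlapped through Lyn11 control replicate 1, and the difference was -0.68 ± 0.17 (SE; adjusted p = 0.0156, limma). SEC61B (ENSG00000106803.9, chromosome 9, 99222064 to 99230615) ran from 29.7 to 59.5 FPKM inside and from 53.0 to 72.3 FPKM outside, by -0.61 ± 0.14 (adjusted p = 0.0106, limma). FKBP2 (ENSG00000173486.12, chromosome 11, 64241003 to 64244132) ran from 5.67 to 9.30 FPKM inside and from 6.43 to 14.0 FPKM outside, by -0.50 ± 0.13 (adjusted p = 0.0188, limma). It lost the call without Lck control replicate 2, without CD28 control replicate 1 and when the control libraries were fitted alone (adjusted p = 0.0531 to 0.0550). Of the 4 chaperones at the top of the level order, HSPA5 had 0.11 (95% interval -0.03 to 0.26), CANX 0.02 (-0.22 to 0.26), HSP90B1 -0.04 (-0.39 to 0.32) and CALR -0.23 (-0.44 to -0.01, adjusted p = 0.158, limma).

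**Figure D4:**
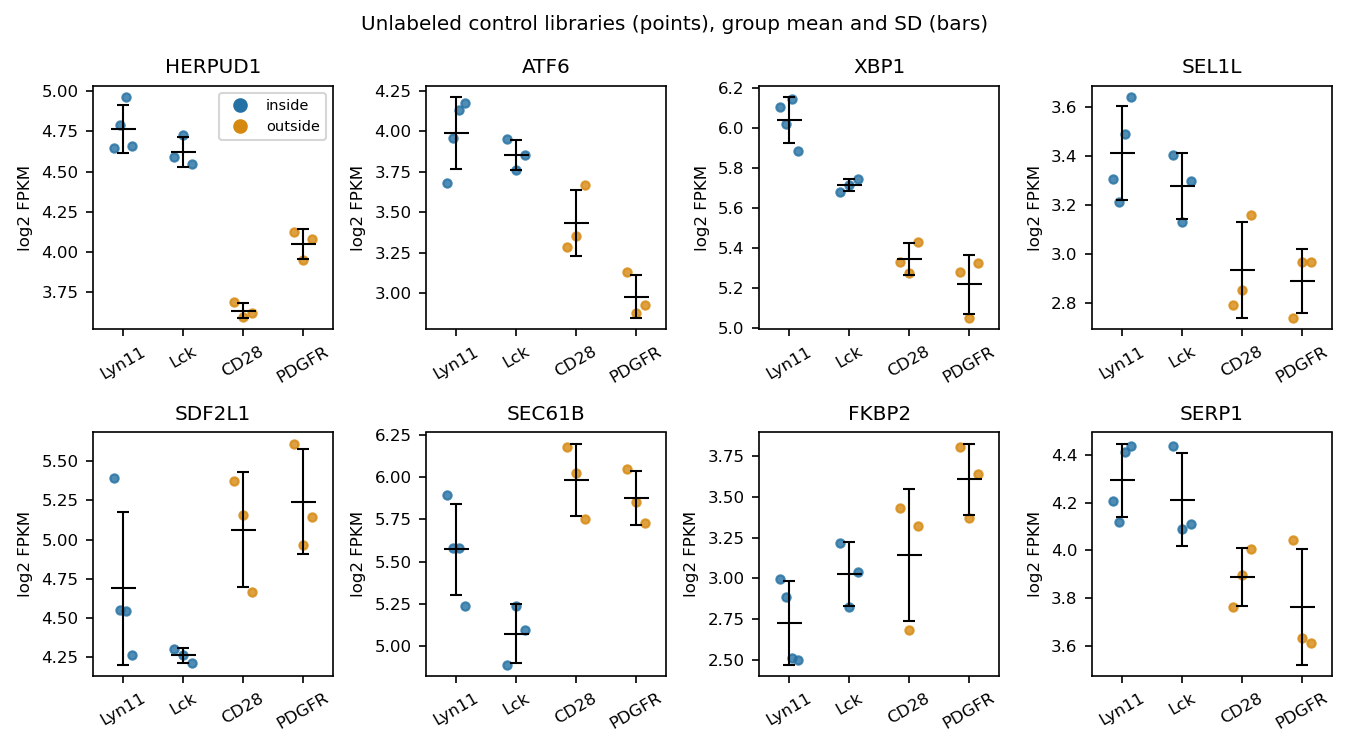
Log2 FPKM in the unlabeled control libraries of the 4 constructs for 8 members, inside left of outside. Points are libraries with the group mean and SD (n = 4 for Lyn11, 3 for the others); HERPUD1, ATF6, XBP1 and SERP1 are higher in every inside control than in any outside control, and SDF2L1, SEC61B and FKBP2 tend lower inside with overlap.

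Other genes of the unfolded protein response were also set beside the members. Of 18 in the list 17 passed the filter, and of these 13 were higher inside and 0 lower, against 7.34% and 3.84% of all genes, with a median of 0.49. CHAC1, a target of the ATF4 branch that degrades glutathione, held 13.1 to 21.5 FPKM in 7 inside controls and 2.26 to 9.02 FPKM in 6 outside controls, a difference of 1.996 ± 0.27 (SE; adjusted p = 0.000117, limma). ASNS (asparagine synthetase) differed by 1.41 ± 0.20, DDIT3 (CHOP) by 1.10 ± 0.12, at 6.81 to 11.2 FPKM inside against 3.88 to 5.30 FPKM outside, and ATF4 by 1.00 ± 0.16, at 234 to 379 FPKM against 88.5 to 187 FPKM. The outside lines differed in ASNS, with control means of 1.10 log2 FPKM for CD28 and 2.31 for PDGFR. Those of Lyn11 and Lck were 3.01 and 3.21. For DDIT3 the CD28 and PDGFR control means were close, at 2.155 and 2.217. CHAC1, DDIT3, ATF4, SESN2, PPP1R15A, EIF2AK3, HSPA13, SEC24D, CREB3L2 and MBTPS2 did not overlap between the sides, and ASNS, TRIB3 and BET1 did. Of all genes, 3.11% were higher inside without overlap. EIF2AK3, the sensor that raises ATF4 within the unfolded protein response, was higher by 0.47 ± 0.13 (adjusted p = 0.0212, limma), at 4.33 to 5.48 FPKM inside and 2.86 to 4.17 FPKM outside. The part of ER stress in these differences was not tested. Of the 13 higher genes, CHAC1, ASNS, DDIT3, ATF4, SESN2, TRIB3 and PPP1R15A are known targets or members of the ATF4 branch, and HSPA13 is an ER-linked Hsp70. WFS1 and SIL1, an ER membrane protein and an exchange factor of HSPA5, had -0.21 and -0.15 and were not called.

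**Figure D5:**
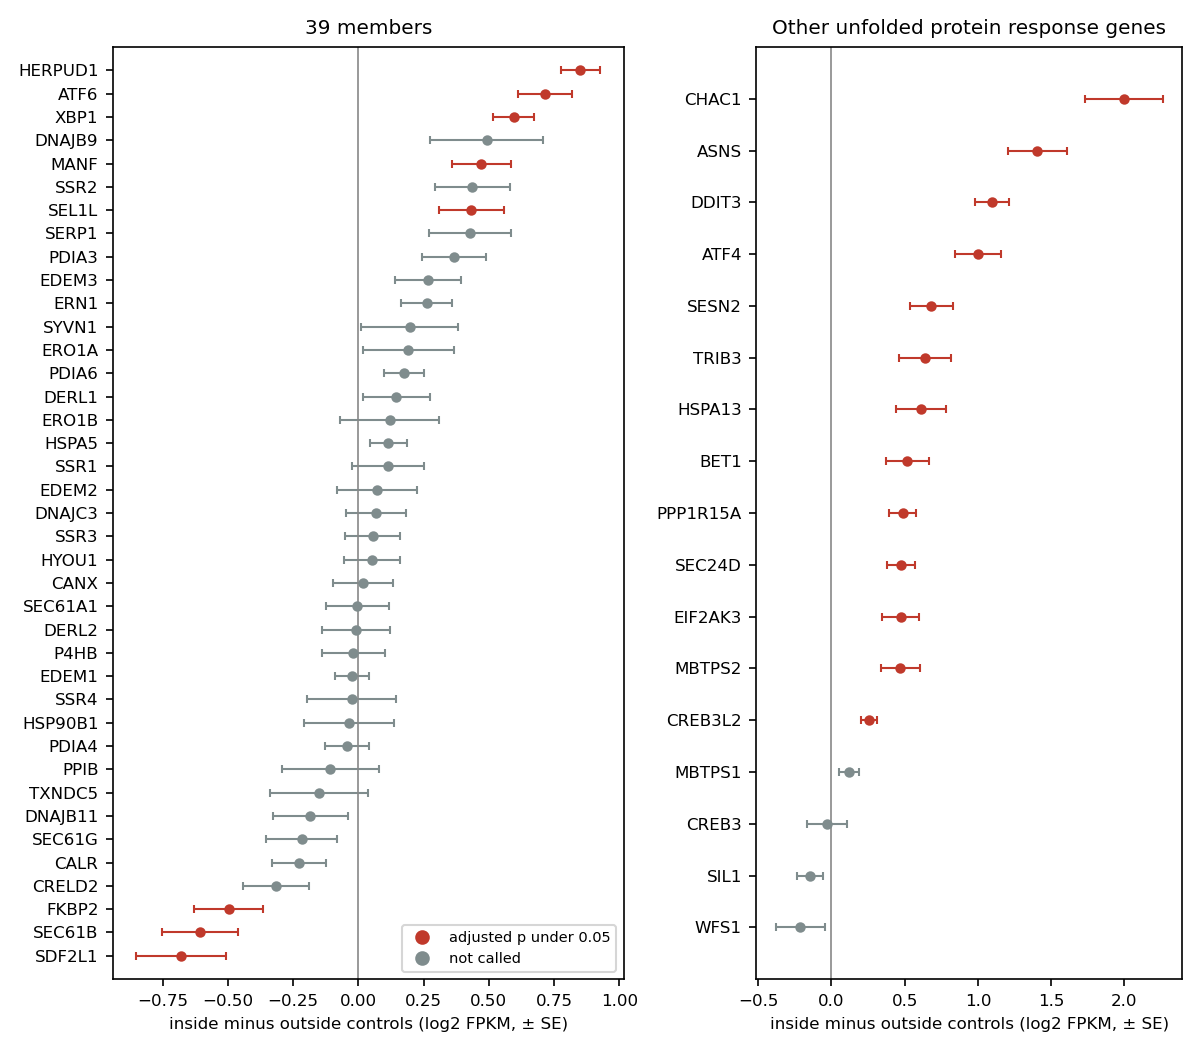
Inside controls minus outside controls (log2 FPKM, point with SE) for the 39 members (left) and 17 other unfolded protein response genes (right), red where the adjusted p was under 0.05. HERPUD1 (0.85) and SDF2L1 (-0.68) end the member list, and CHAC1 (1.996) leads the other list.

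Exon length moved with this difference among the members. Spearman's rho over the 39 members was 0.42, and over 12937 protein-coding genes 0.03, both across genes that share the same libraries. The 2 members with under 1500 exon bases (SDF2L1 and SEC61B) had a median of -0.64, and the 12 with 6000 or more had 0.17, against 0.07 and 0.09 for coding genes of the same lengths. For the labeling average rho was -0.35 over members and -0.08 over coding genes. The part of length in either difference was not tested. The other lists were read against the same shares of all genes in the control comparison, 7.34% higher and 3.84% lower. RPN2 and TUSC3 were higher of 12 oligosaccharyltransferase genes, TXNDC12 of 26 other folding enzymes, RNF139 and UBAC2 of 19 other degradation genes, and SRP72 and SRP68 of 8 signal recognition particle and receptor genes, with 0 lower in these 4 lists. Of 23 other translocation genes CAMLG and GET1 were higher and SEC11C, a signal peptidase subunit, lower. Of 24 cytosolic and mitochondrial chaperones CCT4 was higher and HSPE1, BAG3 and DNAJB6 lower, and of 18 metabolic enzymes MDH1 was higher and FASN lower.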

How the data were processed

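The authors deposited 1 table of log2 FPKM values for 26 libraries; per the submitters' processing notes HISAT2 2.1.0, hg38 and edgeR were used. Symbols and exon lengths came from GENCODE 29. The lowest log2 values of many genes equalled a prior of 1.0031 reads, so whole reads were recovered for 25671 of 25745 genes (at least 99.943% of values in genes with such a floor within 0.05 of a whole number). Groups came from the sample titles. Limma 3.58.1 (R 4.3.3) was fitted to the log2 values with an intensity trend and 1 mean per group over all 26 libraries, two-sided, with Benjamini-Hochberg adjustment over 22284 genes in each of 11 comparisons. The fit was tested on simulated data: the first pass criterion was missed by the comparison of inside and outside controls and was then replaced by one on bias and false calls. In that simulation the share of false calls among all calls in the control comparison was above the nominal level, so its adjusted p-values may be too small. Intervals are 95%. Fold values are 2 to the size of the log2 difference. Alternatives were another pseudocount and filters, 2 normalizations, construct weights, limma voom, the compared libraries alone, a replicate block and left-out libraries. Members and lists were chosen with earlier results of these data known. Full statistics are given for members called in any comparison and for 12 named core members; of the other lists, for those called or largest. Promoter windows are from RefSeq GRCh38.p14 and were searched whole; annotated exon bases were left out of the printed stretches.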

Additional observations from a re-analysis of the deposited data

Results flagged for a closer look

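MANF in Lyn11 labeled replicate 2 stood at 5.15 log2 FPKM, against 5.48 to 5.51 in the other 3 Lyn11 labeled libraries, a gap of 0.921 of the group's range where 0.829 is the 95% limit for 4 samples. It was the single value of that kind among 36 groups of 4 examined (18 named members in Lyn11 labeled and control libraries), and chance gives about 1 in 20.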

How the results depend on the processing

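Percentages in brackets are the share of all genes called at the same setting. The count of called members in the average of the 4 constructs was 6 (7.37%), and 3 after quantile normalization (8.86%). Inside it was 1 (2.86%), with 3 under construct weights (7.25%) and 4 with limma voom (4.15%). It was 2 inside without CD28 labeled replicate 2 and PDGFR control replicate 2 (4.3%). Outside it was 2 (3.19%), and 4 after median centring (3.76%). It was 0 outside after quantile normalization (3.18%), with construct weights (0.965%), with limma voom (1.5%) and with the outside libraries alone (0.292%). Lck went to 3 with construct weights (8.22%), 1 with its own libraries alone (4.42%) and 1 without the 2 libraries that stand apart (1.62%). CD28 went to 1 (HERPUD1) after median centring (0.458%). The control comparison gave 13 after quantile normalization (15.4%), against 8 (11.2%). Leaving out 1 library at a time gave 5 to 7 in the average, 1 to 4 outside, 0 to 1 for Lyn11 and 7 to 10 in the controls. PDGFR and the 3 comparisons between differences stayed at 0 in every alternative run. The cause of these moves was not tested. No called member changed sign in any alternative run.

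Same-numbered labeled and control libraries did not deviate together (13 pairs, correlations -0.288 to 0.166, 3 over 0.1), so the numbers were not taken to pair samples. With the replicate block the average called 3 members (DNAJB9, HERPUD1 and HSPA5) and the outside 1 (HERPUD1), against 5.79% and 2.03% of all genes. The block ended the average calls of CALR (adjusted p = 0.0950), MANF (0.0858) and HYOU1, and the outside call of HSPA5 (0.0546, limma). The block could not be fitted to the control comparison. The outside libraries were less deep, and single constructs of 3 or 4 libraries limit what small differences can be called.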
